A study of Mus musculus with 4 samples.

Results

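Chromatin accessibility around *Clec11a* and *Itga11* was examined in primary osteoblasts, the bone-forming cells, of WT and TCKO mice. *Clec11a* encodes a secreted C-type lectin, also called osteolectin, and *Itga11* encodes the integrin alpha11 subunit, part of a receptor for it. The members were the accessible regions that overlapped either gene or the 25 kb on either side of it. They numbered 42 of the 255864 regions measured, 7 at *Clec11a* and 35 at *Itga11*. Both genes were chosen by name with counts of these same libraries already known, so the counts, folds and ratios of their windows are given as a description.

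The assay was ATAC-seq: a transposase inserts adapters into open DNA, so that more reads in a region mean more accessible chromatin. TCKO mice carried *Prx1-Cre* with floxed alleles of 3 genes (*Tet1* fl/fl, *Tet2* fl/fl and *Tet3* fl/fl), whose products, the TET dioxygenases, oxidise 5-methylcytosine. The controls are labelled wild type, with no floxed allele named for them. All mice were 3 days old and of the C57BL/6 strain, and the cells were grown out of digested skull bone. *Prx1-Cre* is active in mesenchymal cells of the limbs and part of the skull, so cells of other origin in such a culture would keep the *Tet* genes. The labels list 2 samples for each genotype, 4 in all, while a protocol text of theirs speaks of 3 repeats. Only 1 merged count column per genotype was used, so every difference below compares 2 merged libraries, without a measured spread between replicates and without a test.

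Summed over all regions, the WT library held 56898657 counts and the TCKO library 34608167. The median region was 243 bp wide with 86 and 60 counts. TCKO counts were multiplied by 1.64 to bring both totals together, 1 count was added to each genotype, and the log2 of TCKO over WT is called the log2 ratio here, so that -1 is 2-fold lower in TCKO. Its interval is the 95% Wilson interval of the TCKO share of the reads, and covers counting error alone, as these reads carry no molecular identifier and some may copy the same molecule. Over all regions the log2 ratio had a median of 0.06. Osteoblast identity was checked at promoters within 1 kb of a gene start, where the median over genes was 471 WT counts. All 8 osteoblast markers examined had an accessible region there, with WT counts between 93 at *Bglap* and 1375 at *Col1a1*, and they summed to 4728 in WT and 4661 in scaled TCKO. Of the 4 chondrocyte markers 3 had a region too, with sums of 2601 and 2553, led by *Sox9* with 1806 WT counts, and *Col10a1* had none, so that promoters alone did not set osteoblasts apart from chondrocytes. No region lay at the promoters of *Ptprc* and *Csf1r* (blood and macrophage lineage), *Cdh5* (endothelium), *Myod1* and *Myog* (muscle) or *Adipoq* (fat). Other markers of those cells did have reads. Their lists summed to 156 in WT and 191 in scaled TCKO over 4 haematopoietic or osteoclast genes, 584 and 932 over 3 endothelial genes (399 WT counts at *Kdr*), 105 and 133 over 3 muscle genes and 553 and 500 over 3 adipocyte genes (436 WT counts at *Pparg*). *Kdr* and *Pparg* thus had more WT counts than 5 of the 8 osteoblast markers. The part of other cells in the results below was not tested. In merged cultures, fewer cells with an open site and less opening in each cell cannot be told apart.

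Osteolectin is made by bone marrow stromal cells and osteoblasts and promotes the differentiation of skeletal stem and progenitor cells into bone-forming cells. Integrins are heterodimers of an alpha and a beta chain that span the plasma membrane. The alpha11 chain pairs with the beta1 chain (*Itgb1*), and this heterodimer is best known as a receptor of fibroblasts and mesenchymal cells for fibrillar collagen. Binding of osteolectin to it is known to act through focal adhesion kinase and GSK3 on beta-catenin and Wnt target genes.

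Both the ligand window and the receptor window were lower in TCKO. The *Clec11a* window summed to 7593 WT and 3541 TCKO counts, for a log2 ratio of -0.38 (-0.44 to -0.33), which is 23.3% lower after scaling. The *Itga11* window summed to 8302 and 3830 counts, for a log2 ratio of -0.40 (-0.45 to -0.34), or 24.1% lower. The ratios of both windows differed by 0.016 (-0.064 to 0.095) on the log2 scale, an interval that includes 0. That difference was 0.27 after a loess on the mean count and -0.20 within 2 kb of the start, both outside the interval. Windows made alike around 19921 protein-coding genes had a median log2 ratio of -0.02, with a 5th percentile of -0.28 and a 95th of 0.56. A lower ratio than that of *Clec11a* was found for 380 of them (1.91%), and a lower ratio than that of *Itga11* for 319 (1.60%). These windows were not matched for count level, on which the log2 ratio depends. After the loess the *Clec11a* window lay at -0.18 and the *Itga11* window at -0.45.

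The direction was shared by most single regions, but the size was not. Of the 7 *Clec11a* regions 6 had a log2 ratio below 0, as had 24 of the 35 *Itga11* regions, against 45.4% of all regions. A TCKO level at least 2-fold below WT was found in none of the *Clec11a* regions and 6 of the *Itga11* regions, against 4.51% of all regions. At least 2-fold higher was 1 *Clec11a* region and no *Itga11* region, against 12.3% of all regions. Among regions with at least 200 counts over both genotypes, 5 of 17 in the *Itga11* window and none of 4 in the *Clec11a* window were 2-fold lower, against 3.31% of all such regions. The median log2 ratio was -0.33 over the *Clec11a* regions and -0.19 over the *Itga11* regions.

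*Clec11a* (ENSMUSG00000004473) lies on the minus strand of chromosome 7 (GRCm38 chr7:44302687-44306902), with 4 exons in 4.22 kb. Its accessible chromatin fell into a large region inside the gene, a smaller one directly before the start, and 5 weak ones. Region 2, chr7:44304631-44305729, covered the end of intron 3 and the beginning of exon 4 and had its midpoint 1.72 kb after the start. It held 6091 WT and 2955 TCKO counts, for a log2 ratio of -0.33 (-0.39 to -0.26). Region 3, chr7:44306944-44307569, began directly upstream of the start and held 1030 and 339 counts, for a log2 ratio of -0.88 (-1.06 to -0.71). Compared with region 2, this was lower by more than counting error, with a difference of -0.56 (-0.75 to -0.37). Region 4, chr7:44307721-44307834, lay 0.88 kb upstream of the start and held 181 and 73 counts, for a log2 ratio of -0.59 (-0.98 to -0.20). Summed, the pair of regions at the start was 44.0% lower in TCKO, at -0.84 (-0.999 to -0.68), whereas the larger region inside the gene stayed nearer to the WT level.

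The sequences of these elements are shown because the start and the body of *Clec11a* differ in base composition as well as in ratio. They are read 5′ to 3′ on the minus strand, in the direction of transcription. The first is the stretch before the start from the RefSeq promoter table (GRCm38.p6, chr7:44306960-44307209). That start lies upstream of the GENCODE start at 44306902, from which distances are counted here. The others are 200 bp around the strongest summit of region 3 (chr7:44307327-44307526) and of region 2 (chr7:44305057-44305256) from the GRCm38.p6 genome. Capitals mark TGTGG, the core that Runt family factors such as RUNX2 recognise, on either strand (CCACA on the other), and in the first line also GGGCGG, the box bound by SP and KLF factors.
Clec11a before the start: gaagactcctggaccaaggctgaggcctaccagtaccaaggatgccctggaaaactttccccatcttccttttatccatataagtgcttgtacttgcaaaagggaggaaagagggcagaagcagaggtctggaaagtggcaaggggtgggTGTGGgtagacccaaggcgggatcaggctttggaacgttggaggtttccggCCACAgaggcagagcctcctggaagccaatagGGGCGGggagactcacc
Clec11a region 3: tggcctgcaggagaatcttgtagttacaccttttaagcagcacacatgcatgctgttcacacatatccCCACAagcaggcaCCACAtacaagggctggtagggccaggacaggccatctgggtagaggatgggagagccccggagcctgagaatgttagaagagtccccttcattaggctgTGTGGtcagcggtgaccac
Clec11a region 2: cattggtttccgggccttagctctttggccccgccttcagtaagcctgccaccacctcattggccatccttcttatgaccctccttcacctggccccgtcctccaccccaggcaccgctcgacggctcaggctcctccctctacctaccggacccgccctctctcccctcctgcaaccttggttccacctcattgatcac

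The stretch before the start held 2 Runt cores and 1 GGGCGG box, and 4 CpG dinucleotides. The window of region 3 held 3 Runt cores and 2 CpGs. The window of region 2 held no Runt core and 8 CpGs, and also 1 GGGCGG box, spelled CCGCCC on this strand and left in lower case. A Runt core stood within 200 bp around the strongest summit in 5 of the 7 *Clec11a* regions and in 58.5% of all regions, so its presence is common. The longer letters TGTGGTT, which contain the core, were found in no *Clec11a* window and in 9.04% of all. Over their whole length, region 2 held 5.73 CpGs per 100 bp and region 3 held 0.96, against a median of 1.02 for all regions. The CpG-dense element of the locus was thus region 2, whose difference between the genotypes was smaller than that of region 3.

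**Figure D1:**
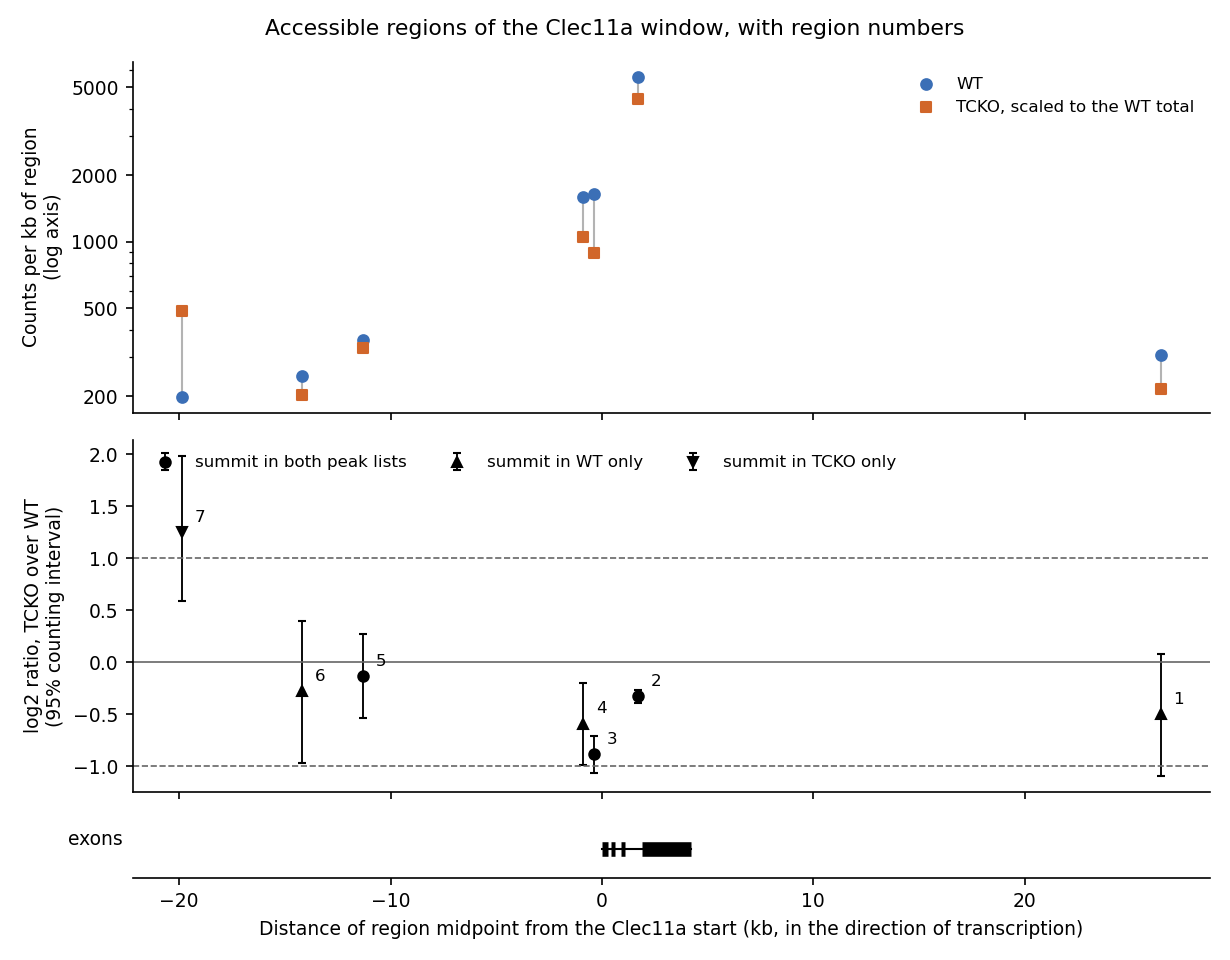
The 7 accessible regions of the Clec11a window by distance of their midpoint from the gene start in kb, with counts per kb of region on a log axis (upper panel; circles WT, squares scaled TCKO), log2 ratios with 95% counting intervals (middle panel; marker shapes show which peak list held a summit) and the exons (lower panel). Regions 3 and 4 at the start have lower ratios than region 2 inside the gene, and region 7 in the neighbouring Shank1 is the only one above 0.

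Region 2 carried 80.2% of the window's reads in WT and 83.5% in TCKO, so the summed *Clec11a* ratio is mostly its ratio. Without it, the other 6 regions summed to 1502 and 586 counts, for a log2 ratio of -0.64 (-0.78 to -0.50). It ranked 28 of all regions by WT count and 30 by WT counts per kb, with 5542 counts per kb against a median of 364. Its highest fold over the local background was 7.29 in WT and 7.31 in TCKO. The pileup of reads recovered at that summit was 116 over a background of 15.0 in WT and 84 over 10.6 in TCKO, where the highest WT pileup of a region had a median of 18 and a 99th percentile of 89. The region held 52.5 WT counts for each read of its highest pileup, against a median of 5.60, but this measure grows with width, and region 2 was 1099 bp wide. Per kb it was 47.8, where the median region had 21.5 and the 99th percentile was 42.3. Whether duplicate reads were counted is not stated by the study, and their part in this count was not tested.

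The summits before the start were lower in TCKO on the same measure. Region 3 held 3 WT summits with folds of 2.85, 2.64 and 3.51, at positions -114, -355 and -525 bp from the start, and a single TCKO summit with a fold of 2.54. At its strongest summit the pileup was 59 over a background of 16.1 in WT and 31 over 11.6 in TCKO. Region 4 had a WT summit with a fold of 2.10 and none in TCKO. These backgrounds were about as high as that of region 2, as the 3 regions lie within a few kb.

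The outer *Clec11a* regions were weak. Region 1, chr7:44280339-44280589, lay in intergenic sequence 22.1 kb past the end of the gene and held 77 and 33 counts, for a log2 ratio of -0.50 (-1.09 to 0.08). Regions 5, 6 and 7 lay in introns 5, 7 and 10 of *Shank1*, a postsynaptic scaffold gene transcribed in the opposite direction. Region 5 held 137 and 76 counts (-0.13, -0.54 to 0.27) and region 6 held 50 and 25 counts (-0.28, -0.97 to 0.40). Region 7, chr7:44326694-44326829, held 27 WT and 40 TCKO counts, for a log2 ratio of 1.25 (0.59 to 1.98). It was the only member region past 2-fold in the upward direction and had a summit in TCKO only, with a fold of 3.09 and a pileup of 10. Its interval reached below 1, the 2-fold line.

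*Itga11* (ENSMUSG00000032243) lies on the plus strand of chromosome 9 (GRCm38 chr9:62677826-62783982), with 30 exons in 106 kb. Introns 1 and 2 are long, so that exon 3 begins near the middle of the gene and the remaining exons are crowded behind it. Its accessibility was spread over many regions of moderate size, and the strongest, region 10, took 10.6% of the WT counts of the window. The regions at least 2-fold lower in TCKO lay upstream of the gene and in introns 1 and 2, while the start region and the sum of the later part of the gene had ratios near 0.

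The start region, region 8 at chr9:62677730-62679115, covered exon 1 and the beginning of intron 1. It held 757 WT and 414 TCKO counts, for a log2 ratio of -0.15 (-0.33 to 0.02). Peak calling placed 7 WT and 3 TCKO summits in it, and the strongest had a fold of 4.76 in WT and 3.96 in TCKO. Region 10, chr9:62684196-62684910, lay 6.73 kb after the start in intron 1 and held 882 counts in WT and 231 in TCKO. Its log2 ratio of -1.21 (-1.42 to -1.01) was the lowest of all member regions, and it was the only member whose interval lay wholly past 2-fold, against 0.654% of all regions. Its fold was 9.95 in WT and 6.99 in TCKO, with pileups of 62 and 30. Region 10 minus the start region was -1.06 (-1.33 to -0.79) on the log2 scale, a contrast in which the scaling factor cancels. Region 10 was taken as the lowest member, and the interval does not allow for that choice.

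The other regions past 2-fold had like ratios. Region 15, chr9:62712077-62712864, in intron 2 and 34.6 kb after the start, held 820 and 227 counts (-1.13, -1.35 to -0.92), and its fold was 8.61 in WT and 5.32 in TCKO. Region 19, chr9:62724106-62724680, also in intron 2, held 438 and 132 counts (-1.01, -1.29 to -0.73) and had a summit in WT only, with a fold of 5.16. Region 12, chr9:62694145-62694686, in intron 1, held 229 and 63 counts (-1.14, -1.55 to -0.74), again with a summit in WT only. Upstream of the gene, region 1, chr9:62654275-62654820, held 436 and 127 counts (-1.06, -1.35 to -0.78), with folds of 7.60 and 4.24. Region 2, chr9:62658749-62659231, held 144 and 41 counts (-1.08, -1.59 to -0.60) and had a summit in WT only. The TCKO library held between 41 and 231 reads in these 6 regions, a count that includes background, and 3 of them had a TCKO summit.

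The windows of 200 bp around the strongest summits of regions 10, 15, 19 and 1 are shown as the elements that carried most of the difference, with the strongest summit of the start region for comparison. They are read 5′ to 3′ on the plus strand of GRCm38.p6, at chr9:62684338-62684537, chr9:62712507-62712706, chr9:62724366-62724565, chr9:62654301-62654500 and chr9:62678838-62679037. Capitals mark the Runt core TGTGG or CCACA and the letters GGAATG or CATTCC recognised by TEAD factors. They also mark TGANTCA, with any base at N, a loose spelling of the site of AP-1 and related bZIP factors. The base at N is T in region 10 and A in region 19, and in region 19 these letters overlap CATTCC.
Itga11 region 10: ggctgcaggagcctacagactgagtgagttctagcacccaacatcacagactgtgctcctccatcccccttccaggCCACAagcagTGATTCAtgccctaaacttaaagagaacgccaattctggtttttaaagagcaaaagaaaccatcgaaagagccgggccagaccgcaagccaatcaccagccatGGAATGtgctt
Itga11 region 15: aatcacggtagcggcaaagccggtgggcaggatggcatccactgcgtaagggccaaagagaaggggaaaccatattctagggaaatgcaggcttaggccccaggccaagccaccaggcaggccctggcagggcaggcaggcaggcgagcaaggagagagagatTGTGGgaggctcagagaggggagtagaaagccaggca
Itga11 region 19: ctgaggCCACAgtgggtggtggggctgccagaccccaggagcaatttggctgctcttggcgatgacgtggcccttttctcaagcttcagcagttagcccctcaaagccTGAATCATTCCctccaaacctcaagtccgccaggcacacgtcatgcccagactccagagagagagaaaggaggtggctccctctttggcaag
Itga11 region 1: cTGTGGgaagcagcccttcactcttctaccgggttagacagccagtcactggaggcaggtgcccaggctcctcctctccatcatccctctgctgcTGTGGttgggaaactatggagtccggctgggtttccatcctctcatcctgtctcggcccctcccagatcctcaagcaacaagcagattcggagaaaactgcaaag
Itga11 region 8, start: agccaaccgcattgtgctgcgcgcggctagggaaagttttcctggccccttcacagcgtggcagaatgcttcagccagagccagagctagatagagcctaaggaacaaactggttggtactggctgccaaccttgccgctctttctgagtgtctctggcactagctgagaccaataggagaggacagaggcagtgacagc

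A Runt core was present in the windows of all 6 *Itga11* regions past 2-fold, in 21 of the 35 *Itga11* windows and in 58.5% of all regions. The letters TGTGGTT were found in region 1 alone among the 35, against 9.04% of all regions. TGANTCA was present in 2 of the 6 and in 10 of the 35, against 26.1% of all regions, and GGAATG in 3 of the 6 and 8 of the 35, against 16.9%. The start region's window held none of these letters, but it was centred on the strongest WT summit, 1112 bp after the start. A WT summit of similar fold (4.59 against 4.76) lay 35 bp after the start, and the strongest TCKO summit 10 bp after it. The RefSeq promoter window of *Itga11*, chr9:62677605-62677904, held 1 Runt core. Matches describe the sequence and do not show that a factor was bound.

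**Figure D2:**
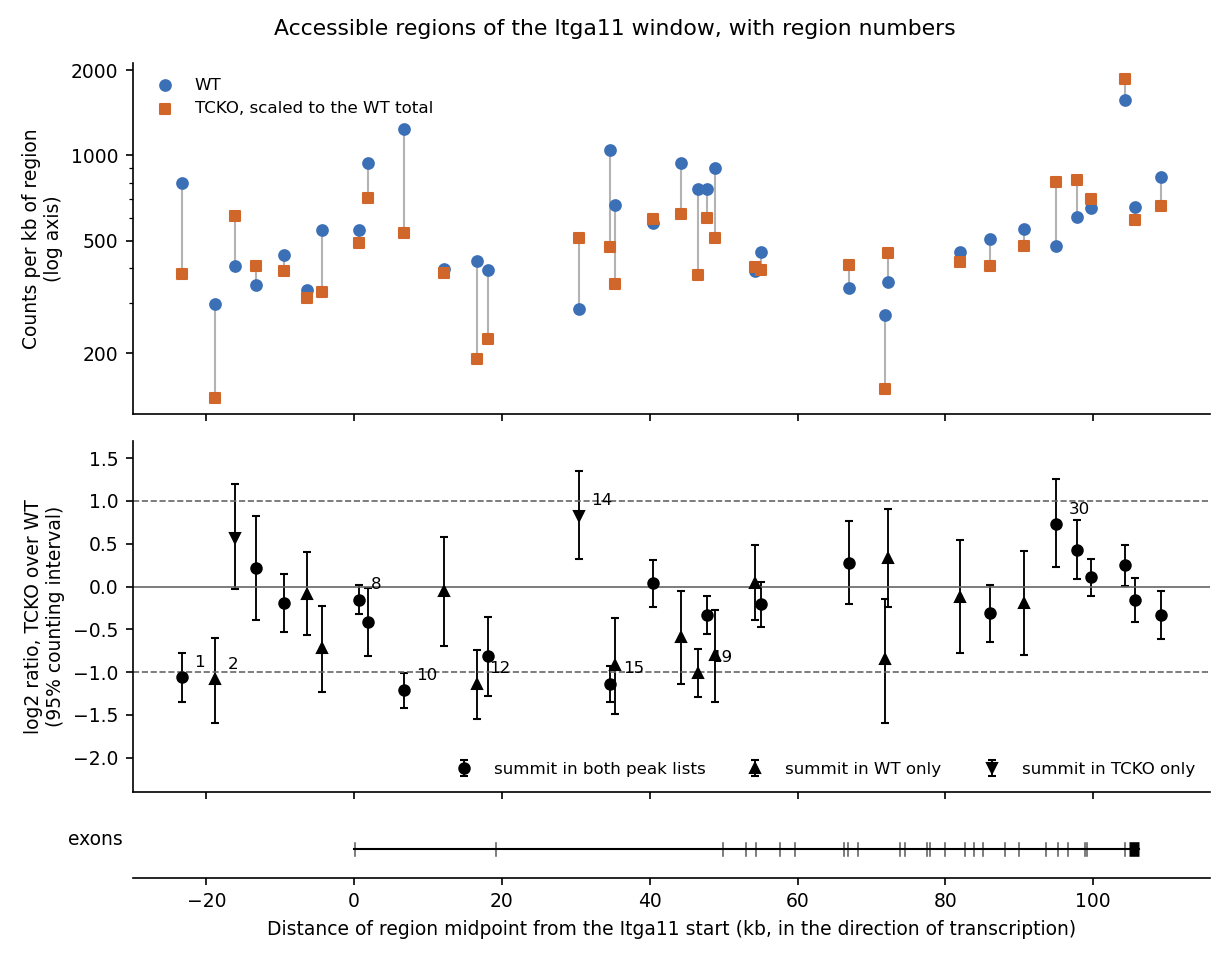
The 35 accessible regions of the Itga11 window by distance of their midpoint from the gene start in kb, with counts per kb of region on a log axis (upper panel; circles WT, squares scaled TCKO), log2 ratios with 95% counting intervals (middle panel; marker shapes show which peak list held a summit, dashed lines are 2-fold) and the exons (lower panel). The 6 regions past 2-fold, numbered 1, 2, 10, 12, 15 and 19, all lie before exon 3, and the regions behind it scatter about 0.

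Position within the locus was followed by summing the regions of each part. The 7 upstream regions summed to 1085 WT and 447 TCKO counts, for a log2 ratio of -0.56 (-0.72 to -0.40), and their single ratios ranged from -1.08 to 0.57. The 5 regions of intron 1 behind the start region summed to 1469 and 448 counts, for a log2 ratio of -0.995 (-1.15 to -0.84), and all 5 were below 0. The 8 regions of intron 2 summed to 2388 and 940 counts, for a log2 ratio of -0.63 (-0.74 to -0.52), and 6 of them were below 0. Intron 1 was lower than intron 2 by more than counting error, with a difference of -0.37 (-0.56 to -0.18). Region 10, taken above as the lowest member, held 882 of the 1469 WT and 231 of the 448 TCKO counts of intron 1. The difference was not computed without region 10, so it may rest on that region.

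From intron 4 to exon 30 the picture was different. The 13 regions there summed to 2280 and 1425 counts, for a log2 ratio of 0.04 (-0.06 to 0.13), and 6 of them were below 0. None was past 2-fold, the intervals of 9 included 0, and 3 lay above it. The interval of 1 lay below 0, that of region 25 in intron 10, which held 60 and 20 counts (-0.85, -1.59 to -0.15) and had a summit in WT only. The difference between introns 1 and 2 and this later part was -0.80 (-0.93 to -0.67), and that between introns 1 and 2 and the start region was -0.60 (-0.80 to -0.41). The upstream regions also lay below the start region, by -0.41 (-0.64 to -0.17). Behind the gene, region 35 held 323 and 156 counts, for a log2 ratio of -0.33 (-0.61 to -0.06). Across the 35 regions the log2 ratio had a Spearman correlation of 0.31 with distance along the gene, -0.21 with CpG density and -0.36 with WT counts per kb, given as a description since the regions share both libraries. The WT count is also the denominator of the log2 ratio, so counting error alone can make the last correlation negative.

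Some *Itga11* regions had more scaled counts in TCKO than in WT. Region 14 in intron 2, which lies between the regions lowest in TCKO, held 58 WT and 63 TCKO counts, for a log2 ratio of 0.83 (0.32 to 1.35), and had a summit in TCKO only. Region 30 in intron 23 held 60 and 61 counts (0.73, 0.23 to 1.25), and region 31 in intron 26 held 151 and 124 (0.43, 0.09 to 0.77). Region 33 in intron 29, chr9:62782068-62782278, was the densest of the window, with 1569 WT counts per kb, and held 331 and 239 counts (0.25, 0.01 to 0.49). These 4 of the 35 *Itga11* regions had intervals above 0, where 29.5% of all regions had, and 15 of the 35 had intervals below 0, where 18.9% of all regions had. For *Clec11a* the numbers were 1 above and 3 below of 7. The fold of region 33 was 6.17 in WT and 7.89 in TCKO, with nearly equal pileups of 54 and 55 in libraries of unequal total count.

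Summits told how the peak caller divided the same signal. The WT list held 9 summits in the *Clec11a* regions and 53 in the *Itga11* regions, and the TCKO list held 5 and 28. Over the whole lists there were 316241 summits in WT and 227919 in TCKO, the library with fewer counts over all regions. Of the *Itga11* regions 19 (54.3%) had a summit in both lists, 14 (40.0%) in WT only and 2 (5.71%) in TCKO only, while these shares were 56.8%, 33.0% and 10.2% over all regions. For *Clec11a* they were 3, 3 and 1 regions. In the 19 shared *Itga11* regions the TCKO fold was a median of 0.744 times the WT fold and was lower in 14 (73.7%), and over all shared regions the median was 0.877 and the share 69.7%. The 3 shared *Clec11a* regions had a median of 0.897. A fold is taken over the local background of its own library, so this comparison needs no scaling, but it can follow depth. The total counts, lower in TCKO, cover reads inside regions only. The lowest background of the peak caller was 1.98 reads in WT and 1.91 in TCKO. The part of depth in these folds was not tested.

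CpG density, of interest because TET enzymes act on methylated CpGs, did not separate the lower *Itga11* regions from the rest. The median was 1.57 CpGs per 100 bp over the 35 regions, against 1.02 over all regions of the table. The 6 regions past 2-fold had a median of 1.52 and ranged from 0.41 to 1.85, and the other 29 had a median of 1.63 and ranged from 0 to 5.26. The start region held 4.47. In the RefSeq promoter windows, which reach from 250 bases before to 50 after the start, *Itga11* had 16 CpGs and *Clec11a* 4, where the median of 32851 promoters was 7.

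The log2 ratio depends on the level of a region, so members were also read against regions of like mean count. In bands from 50 to 100, 100 to 200, 200 to 400 and 400 to 800 mean counts the medians of all regions were 0.20, 0.12, 0.04 and -0.03. Of the *Itga11* regions 25 of 35 lay below the median of their own band, as did 6 of 7 *Clec11a* regions. Regions 10 and 15 of *Itga11* and region 3 of *Clec11a* lay in the band from 400 to 800, below its 5th percentile of -0.82. Region 2 of *Clec11a* lay in the band of at least 1600, where the median was -0.15 and the 5th percentile -0.45, so its -0.33 was below the median and inside the range of such regions. After the loess on the mean count, region 2 lay at -0.08.

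**Figure D3:**
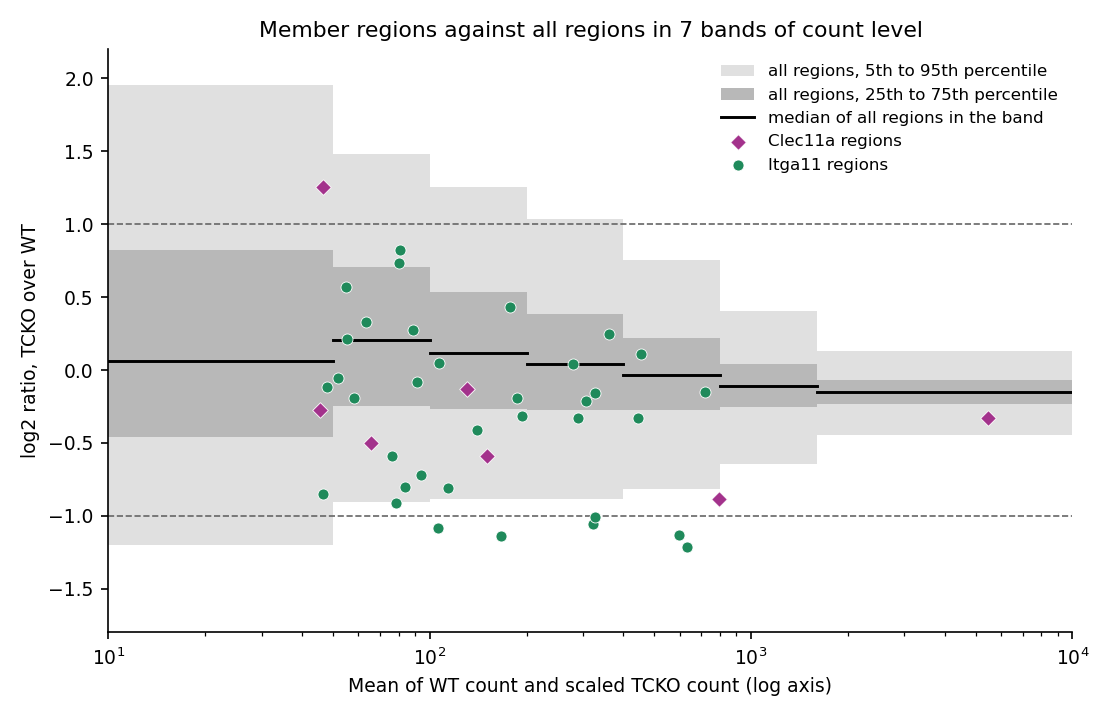
Log2 ratio of TCKO over WT against the mean of the WT count and the scaled TCKO count on a log axis that starts at 10, for the 7 Clec11a regions (diamonds) and the 35 Itga11 regions (circles). Grey bands give the 5th to 95th and 25th to 75th percentiles of all regions of like level and black lines their median, and 25 Itga11 and 6 Clec11a regions lie below the black line.

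Other genes of the pathway were taken from a fixed list and summed over the gene body with the 2 kb before its start. On this measure *Clec11a* held 7302 WT and 3367 TCKO counts, for a log2 ratio of -0.40 (-0.46 to -0.34), and *Itga11* held 6894 and 3227, for a log2 ratio of -0.38 (-0.44 to -0.32). Of the 18 other genes 10 had a ratio below 0 and 8 above, with a median of -0.01, and the intervals lay below 0 for 7, above 0 for 5 and across 0 for 6. The median over all 18073 gene bodies was -0.03. A lower ratio than that of *Itga11* was found for 3 of the 18, and a lower ratio than that of *Clec11a* for 2.

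On this measure of gene bodies, the partner and related integrin chains had ratios nearer to 0 than *Itga11*, with intervals that did not overlap its interval. *Itgb1*, which encodes the beta1 chain that alpha11 needs, held 2725 and 1701 counts, for a log2 ratio of 0.04 (-0.05 to 0.12). The other collagen-binding alpha chains lay at -0.06 (-0.11 to -0.0028) for *Itga1*, 0.12 (0.03 to 0.21) for *Itga2* and -0.18 (-0.30 to -0.07) for *Itga10*. At promoters within 1 kb of the start this order did not hold, as *Itga11* lay at -0.15 (-0.33 to 0.02), *Itgb1* at -0.10 (-0.21 to 0.02), *Itga1* at -0.31 (-0.44 to -0.18), *Itga2* at -0.18 (-0.39 to 0.04) and *Itga10* at -0.38 (-0.64 to -0.13). Among the collagen genes whose products the receptor also binds, *Col1a1* lay at -0.09 (-0.18 to 0.01), *Col1a2* at -0.09 (-0.17 to -0.01) and *Col3a1* at 0.15 (0.03 to 0.28). Other secreted C-type lectin genes had few reads in these cells. *Clec3a* held 124 and 49 counts (-0.62, -1.10 to -0.15) and *Clec3b*, which encodes tetranectin, 45 and 12 (-1.15, -2.09 to -0.29).

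Genes of signalling and its targets lay on both sides of 0. *Ptk2*, which encodes focal adhesion kinase, had a log2 ratio of 0.17 (0.12 to 0.22), *Ilk* of -0.02 (-0.12 to 0.08), *Gsk3b* of -0.00026 (-0.046 to 0.045) and *Ctnnb1*, the beta-catenin gene, of 0.08 (-0.03 to 0.18). The transcription factor genes *Lef1* and *Tcf7* lay at 0.22 (0.12 to 0.33) and 0.23 (0.13 to 0.34), and the Wnt target *Axin2* at 0.01 (-0.08 to 0.10). *Lrp5*, a Wnt co-receptor known for its effect on bone mass, held 7449 WT and 3452 TCKO counts, for a log2 ratio of -0.39 (-0.45 to -0.33), close to both members, and its relative *Lrp6* lay at -0.10 (-0.15 to -0.04).

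**Figure D4:**
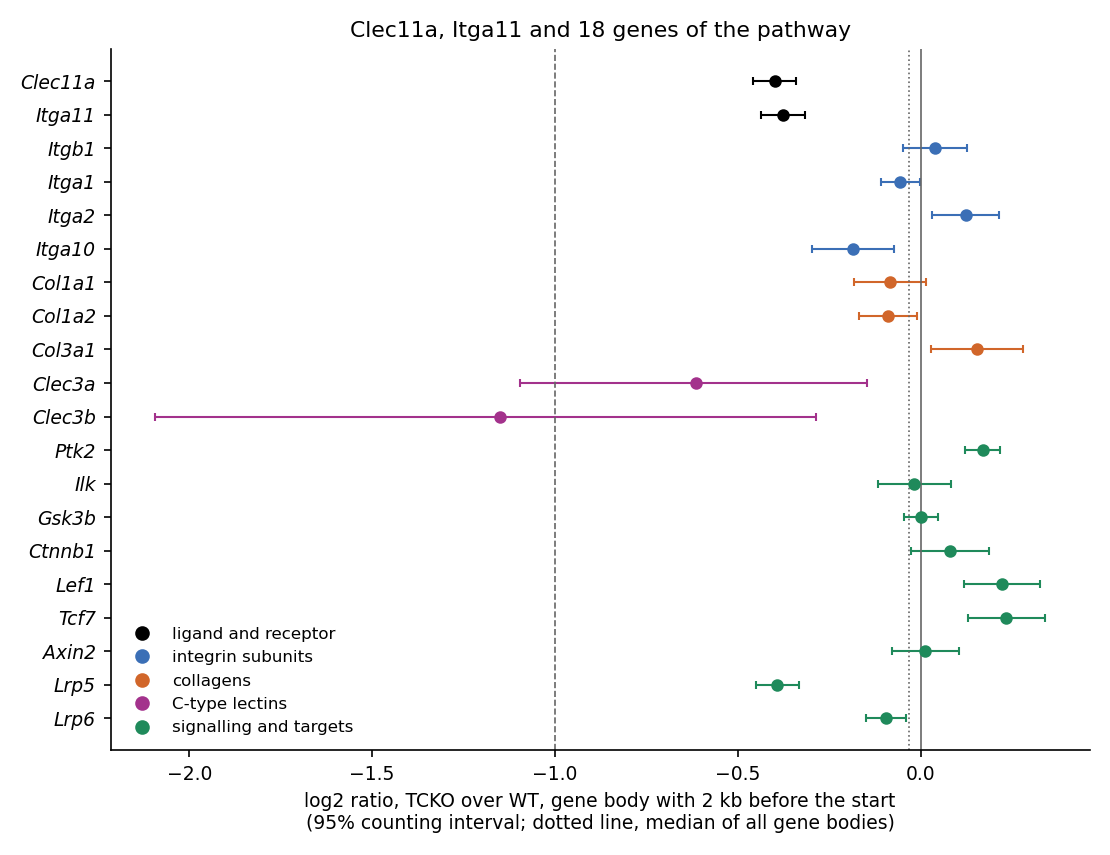
Log2 ratio of TCKO over WT with its 95% counting interval for the gene body with the 2 kb before the start, for Clec11a, Itga11 and 18 genes of the pathway in the order of their roles. The solid line is 0, the dashed line 2-fold lower and the dotted line the median of all gene bodies. Lrp5 lies beside the ligand and receptor genes, Clec3a and Clec3b lie lower with wide intervals, and the other genes lie between -0.18 and 0.23.

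Genes most like each member were sought among windows with a similar number of regions (within 20%) and a similar WT count (within 25%), by the smallest difference in log2 ratio. For *Clec11a* the 3 nearest of 282 were *Dnase1l2* at -0.37, *Golga1* at -0.36 and *Zfp30* at -0.35, where the median of the 282 was -0.12. For *Itga11* the 3 nearest of 396 were *Crispld2* at -0.40, *Arhgap35* at -0.39 and *Ptpn13* at -0.38, and the median of the 396 was -0.03. These ratios come from the same 2 libraries as those of the members.

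How far the members lay below 0 depended on the scaling. When depth was read from the peak caller's background (a factor of 1.08 in place of 1.64), the windows lay at -0.99 for *Clec11a* and -1.01 for *Itga11*, and the median of all regions moved to -0.54. Under it 3 of 7 *Clec11a* and 13 of 35 *Itga11* regions were at least 2-fold lower, against 19.9% of all regions, and none was 2-fold higher, against 3.91%. With no scaling 20 of the 42 member regions were at least 2-fold lower, against 25.6% of all regions, and none was 2-fold higher, against 3.17%. With the total count and a fold of 1.5 in place of 2, 14 of the 42 were lower and 3 higher, against 13.2% and 23.3% of all regions. At a fold of 3 none was lower or higher, against 0.784% and 4.03%. A scaling by a single factor moves all regions alike, so the distance of the members from the median of all regions could change only with the loess on the mean count, which removes the trend with level. The loess put the *Clec11a* window at -0.18 and the *Itga11* window at -0.45. Measured from the median of all regions, the summed *Clec11a* window went from -0.45 to -0.17 and the summed *Itga11* window from -0.46 to -0.44, while the median of the single regions went from -0.39 to -0.50 and from -0.25 to -0.32. Contrasts within a locus, such as introns 1 and 2 against the rest of *Itga11*, do not depend on a scaling by a single factor.

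**Figure D5:**
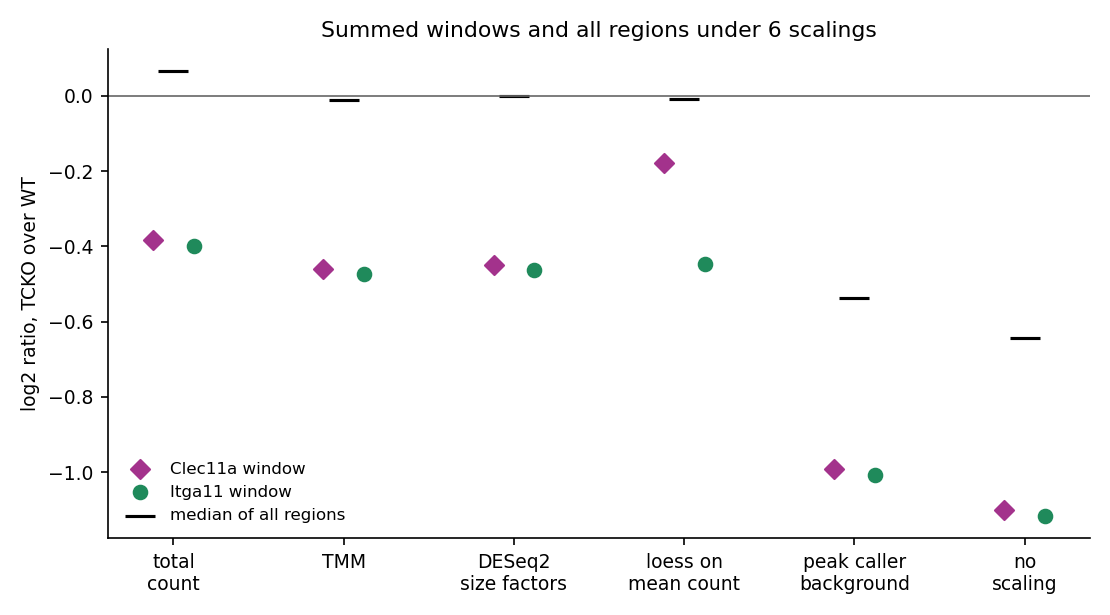
Log2 ratio of TCKO over WT of the summed Clec11a window (diamonds) and Itga11 window (circles) and the median of all regions (bars) under 6 scalings. Both windows lie below the median of all regions in each case, and with the background of the peak caller or no scaling all 3 values move down together.

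The 25 kb limit fixed which regions were members. The outermost *Clec11a* regions inside the 25 kb held 77 and 33 counts on one side (-0.50) and 27 and 40 on the other (1.25), and the next regions outside held 65 and 39 (-0.02) and 185 and 93 (-0.27). At *Itga11* the outermost regions inside were region 1 (-1.06) and region 35 (-0.33), and the next ones outside held 152 and 77 counts (-0.26) upstream and 1986 and 1336 (0.15) downstream, the latter at the start of *Fem1b*.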

How the data were processed

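ATAC-seq libraries of primary osteoblasts were aligned by the authors to GRCm38 with STAR 2.7.0e, end to end, keeping uniquely mapping reads. The replicates of each genotype were merged and peaks were called with MACS2 with its call-summits option, on the merged reads. Removal of duplicate reads before counting is not given in the sources used here. The authors deposited raw read counts per region, with 1 merged column per genotype, and peak lists whose values are a fold enrichment, a ratio to the local background, and a −log10 p-value per summit. The count table held 0 other columns of sample values.

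Members and gene lists were chosen with earlier results of these data known. Members were regions overlapping *Clec11a* or *Itga11* (GENCODE M21) or the 25 kb on either side. Regions written out in full were, for each gene, that at the start, the 3 with most WT counts, the largest fall and rise among regions with at least 50 counts, and any past 2-fold, the cutoff of the study. Counts were scaled to the total count, 1 was added, and 95% Wilson intervals were computed. Intervals of a difference between 2 log2 ratios used the normal approximation for 4 counts. The total over all regions was 56898657 counts in WT and 34608167 in TCKO. Merged columns leave no residual degree of freedom, so the edgeR test fixed in the design was not run and there is no p-value. Pileup and background at each summit were solved from the fold and the Poisson p-value, to within 9.1e-05 of the −log10 p. Alternative factors came from TMM (edgeR 4.0.16), size factors (DESeq2 1.42.0, R 4.3.3), the lowest background of the peak caller, no scaling, and a loess on mean count (statsmodels 0.14.6, span 0.3). Other alternatives were narrower windows, 10 counts added, at least 50 counts, folds of 1.5 and 3, and an interval wholly past 2-fold. All 21 chromosomes of the table were within the lengths of GRCm38.p6. Sequences came from that genome and from RefSeq promoters, which were found for both genes. The RefSeq starts differ from the GENCODE starts, from which distances were counted. Motif letters were matched to either strand of the 200 bp centred on the strongest summit. All steps ran in Python 3.11.15 (scipy 1.17.1, pandas 2.3.3) and were tested on simulated counts.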

Additional observations from a re-analysis of the deposited data

How the results depend on the processing

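No replicate was available apart, so neither leaving out a replicate nor a count model could be run. No paired analysis was possible because the columns are merged over the replicates of each genotype. The *Clec11a* window (-0.38) lay at -0.46 with TMM, -0.45 with DESeq2 size factors, -0.99 with the peak caller background, -1.10 with no scaling and -0.18 with loess, and at -0.33 to -0.40 with other windows, added counts or a filter. The *Itga11* window (-0.40) lay at -0.47, -0.46, -1.01 and -1.12 under the first 4 and at -0.20 within 2 kb of the start. No direction of either window turned. The difference between both windows (0.016) moved to 0.27 with loess and -0.20 within 2 kb of the start. The 6 regions at least 2-fold lower became 16 with the peak caller background (19.9% of all regions), 20 with no scaling (25.6%), 14 at a fold of 1.5 (13.2%), 1 with the interval wholly past 2-fold (0.654%), and 0 at a fold of 3 or within 2 kb of the start. The number was 9 with the loess (5.76%) and 4 with 10 counts added, where the share of all regions was not computed. With 10 kb on either side or the gene body alone it was 4 as well. The 1 region at least 2-fold higher became 3 at a fold of 1.5 and 0 with the peak caller background, no scaling, any narrower window, a fold of 3 or the interval wholly past 2-fold. Under the shifted factors the call followed the construction, since the shift was -0.61 for the peak caller background and -0.72 for no scaling, and in narrower windows fewer regions were counted. Otherwise the cause was not tested. Merged counts cover counting error only, and regions with few counts, such as region 7 of *Clec11a* with 67 over both genotypes, have wide intervals.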
